A study of Homo sapiens with 5 samples.

Results

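Respiratory complex I is the enzyme of the inner mitochondrial membrane that takes electrons from NADH and passes them to ubiquinone. The 36 genes described here code for nuclear-encoded subunits of this enzyme and were chosen by name, from the NDUF symbols of a subunit list, out of 20030 gene symbols in each deposited table. All 36 symbols were found in all 5 libraries. All 36 reached 1 FPKM (a read level scaled by gene length and library depth) in at least 1 library, the minimum for testing. The rule for the members is a list of names and uses no measured value, but the list was drawn up with earlier results of these data known.

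Transcripts were measured by RNA sequencing in HCT116, an established human colorectal cancer cell line. Cells had received an siRNA against the transcription factor SP1 (siSP1, 1 library), against SP3 (siSP3, 1 library) or against both (siSP1SP3, 1 library), and 2 libraries are labelled control (control 1 and control 2), with no word on what those cells received. An siRNA is a short duplex RNA that lowers the transcript it matches. All cells were of the same line and the labels state no siRNA sequence, dose or duration. No knockdown library has a replicate, so the spread behind every test came from the 2 controls. The labels do not say whether those were separate cultures, and p-values therefore measure only the spread between these libraries.

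Complex I is L-shaped. Its peripheral arm stands in the mitochondrial matrix, where core subunits carry the flavin and the chain of iron-sulfur clusters along which electrons travel from NADH to ubiquinone. Its membrane arm pumps protons, with core subunits encoded by mitochondrial DNA. Around the core sit accessory subunits, all nuclear-encoded, which are needed for assembly or stability rather than for the chemistry itself. SP1 and SP3 are related zinc finger proteins that bind GC boxes, and promoters of respiratory genes commonly combine GC boxes with sites for NRF1, for ETS factors such as GABP, and for YY1.

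The libraries held 14678068 to 15970519 counted reads, and a member held 47 to 3284 reads in a library. Control 1 and control 2 differed for the members by a median of -0.01 on the log2(FPKM + 1) scale, and by -0.22 for NDUFB1 to 0.15 for NDUFA12 at the extremes. SP1 stood at 15.8 FPKM in siSP1, 27.5 in siSP3 and 16.1 in siSP1SP3, against 36.6 and 37.2 FPKM in the controls. SP3 stood at 14.3, 5.42 and 6.67 FPKM in the same order, against 13.3 and 13.0 FPKM in the controls. Each siRNA thus left its target below both controls, and SP1 was also below both controls in siSP3, at 74.5% of control. Of 8 epithelial markers 7 reached 1 FPKM in some library, and VIL1 was at or near 0 in every library. Of these 7, 4 were lower than control in each knockdown, KRT18 (408, 284 and 153 FPKM in siSP1, siSP3 and siSP1SP3, against 750.4 and 739.8 FPKM in the controls), CLDN4 (221, 224 and 181 FPKM, against 629.8 and 625 FPKM), CDH1 and CDX2. KRT8 stood at 1737, 2361 and 2253 FPKM, against 1749 and 1799 FPKM in the controls. The epithelial list, most of it KRT8 and KRT19, summed to 3775, 4434 and 4292 FPKM in siSP1, siSP3 and siSP1SP3, against 4640.6 and 4640.4 FPKM in the controls. Among 6 leukocyte markers, LYZ stood at 0.258, 0.124 and 0.0449 FPKM in siSP1, siSP3 and siSP1SP3, against 11.1 and 12.2 FPKM in the controls. TYROBP was listed at 0 in the 3 knockdown libraries, against 2.05 and 1.49 FPKM in the controls. The whole leukocyte list summed to 56.6, 94.2 and 75.4 FPKM in siSP1, siSP3 and siSP1SP3, against 77.8 and 74.7 FPKM in the controls, most of it CD68. Fibroblast markers summed to 4.39 to 8.34 FPKM in the knockdown libraries, against 8.88 and 9.03 FPKM in the controls, nearly all COL1A1, with LUM at 0 throughout, and erythroid markers to 0 to 0.620 FPKM, against 1.94 and 2.11 FPKM in the controls. The part of these markers in the differences below was not tested.

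By mean over the 5 libraries, NDUFS5, NDUFB9 and NDUFA13 were the most abundant members, at 148 to 296 FPKM, and NDUFC2, NDUFV3 and NDUFA5 the least, at 1.18 to 7.86 FPKM. FPKM is scaled by a length for each gene, so these levels can be set against each other only roughly. The length recovered from the deposited values was 7171 bases for NDUFA5 and 8559 for NDUFA10. Their longest GENCODE transcripts have 5608 and 4915 bases. For others the recovered length was shorter than that transcript, as for NDUFB1 (420 against 1333 bases). A recovered length is a lower limit, so whether the length used was shorter there is not known. A longer divisor gives a lower FPKM. In addition, near-identical pseudogene copies of several NDUF genes exist in the human genome and can share reads. Summed over the 36 members, transcripts amounted to 2039 FPKM in siSP1, 2600 in siSP3 and 2587 in siSP1SP3, against 2374 and 2342 FPKM in the controls. The sum was lowest in siSP1 and above both controls in siSP3 and in siSP1SP3. As a share of all FPKM, members took 0.509% in siSP1, 0.637% in siSP3 and 0.628% in siSP1SP3, against 0.595% and 0.583% in the controls.

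**Figure D1:**
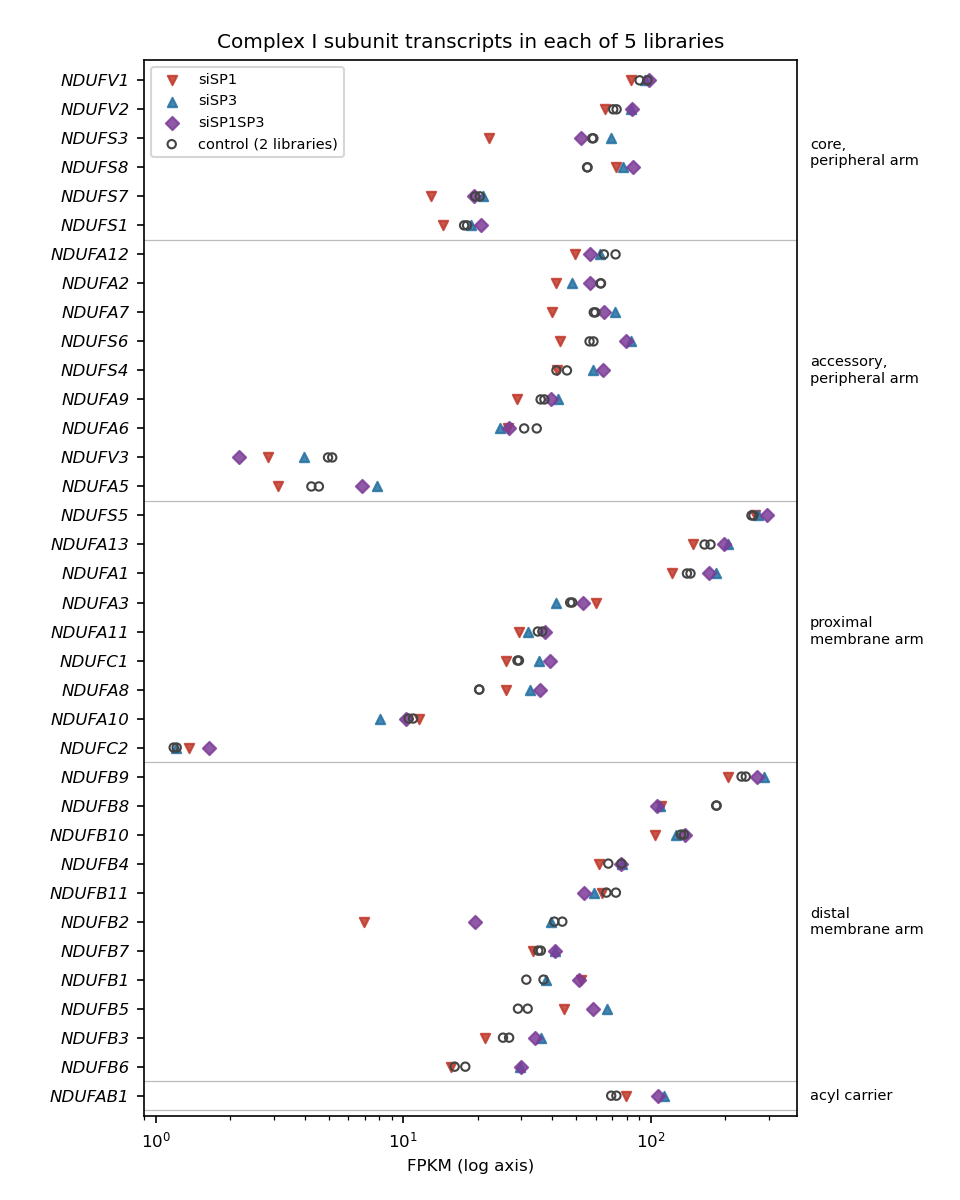
Level of each of the 36 complex I subunit transcripts in each of the 5 libraries, in FPKM on a log axis, with triangles and diamonds for the siSP1, siSP3 and siSP1SP3 libraries and open circles for the 2 controls, grouped by place in the enzyme. NDUFB2 and NDUFS3 lie far left of their controls in siSP1, NDUFB8 lies left of its controls in all 3 knockdown libraries, and NDUFB5 lies right of its controls in all 3.

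Promoter sequences were examined because SP1 and SP3 bind promoters. The RefSeq promoter table (GRCh38.p14) held a window for 32 of the 36 members, and NDUFB5, NDUFB9, NDUFC2 and NDUFS5 had none. For genes with more than 1 window, 4 members among them, only the first listed was read. In the 250 bases before the annotated start, the GC box GGGCGG, read on either strand, was present in 20 of 32 members (62.5%), against 42.3% of all 27305 promoters and 69.6% of the 9273 promoters of genes tested. The NRF1 motif CGCATGCG was present in 3 members, NDUFB4, NDUFS6 and NDUFS7 (9.38%, against 1.86% of all promoters and 3.46% of those of genes tested). The ETS motif CCGGAAG was present in 5 members (15.6%, against 8.82% and 16.5%), and the YY1 motif AAGATGGC in 0 of 32 (against 1.37% and 1.83%). A motif match describes the letters of the window and shows no binding. The windows of 5 members that carry the results below follow, each 5′ to 3′ on the strand of its gene, with GC box and ETS motifs in capitals. NDUFB2, NDUFS3 and NDUFB8 are shown as falls in siSP1, and NDUFA8 and NDUFAB1 as rises in all 3 knockdown libraries.
NDUFB2, chr7:140696458-140696707, plus strand: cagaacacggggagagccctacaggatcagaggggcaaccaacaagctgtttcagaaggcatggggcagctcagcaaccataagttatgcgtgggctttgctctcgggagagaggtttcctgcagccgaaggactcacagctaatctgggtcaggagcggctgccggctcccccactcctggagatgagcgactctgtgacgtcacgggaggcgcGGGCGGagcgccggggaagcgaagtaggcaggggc
NDUFS3, chr11:47578824-47579073, plus strand: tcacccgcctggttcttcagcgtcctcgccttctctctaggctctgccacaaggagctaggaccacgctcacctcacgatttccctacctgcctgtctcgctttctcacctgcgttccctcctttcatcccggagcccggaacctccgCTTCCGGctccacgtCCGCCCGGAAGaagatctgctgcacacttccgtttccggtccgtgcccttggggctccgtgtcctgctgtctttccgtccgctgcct
NDUFB8, chr10:100529924-100530173, minus strand: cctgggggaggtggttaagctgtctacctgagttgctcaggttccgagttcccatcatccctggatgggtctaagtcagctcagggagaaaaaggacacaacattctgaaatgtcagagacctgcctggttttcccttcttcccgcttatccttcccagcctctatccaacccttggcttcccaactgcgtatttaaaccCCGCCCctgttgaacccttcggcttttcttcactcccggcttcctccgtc
NDUFA8, chr9:122159780-122160029, minus strand: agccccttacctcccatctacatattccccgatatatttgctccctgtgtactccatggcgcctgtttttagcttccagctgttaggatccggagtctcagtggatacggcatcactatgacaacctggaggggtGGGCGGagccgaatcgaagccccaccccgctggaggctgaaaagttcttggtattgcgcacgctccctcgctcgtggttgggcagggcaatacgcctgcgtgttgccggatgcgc
NDUFAB1, chr16:23596317-23596566, minus strand: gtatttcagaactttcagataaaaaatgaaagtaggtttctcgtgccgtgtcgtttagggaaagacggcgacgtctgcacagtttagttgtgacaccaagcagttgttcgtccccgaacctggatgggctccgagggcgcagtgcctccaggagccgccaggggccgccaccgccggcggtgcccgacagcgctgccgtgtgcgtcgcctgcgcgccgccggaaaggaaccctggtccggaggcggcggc

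Counted from the start, with the base just before it as -1, the GC box of NDUFB2 began at position -35, that of NDUFB8 at -50 and that of NDUFA8 at -115. NDUFS3 had an ETS motif at -102 and a second one at -83 that overlapped a GC box at -87, and the NDUFAB1 window held none of the 4 motifs searched. In the GENCODE annotation of the same assembly, all 250 bases of the NDUFB2 window lay in an exon of NDUFB2-AS1, an antisense RNA. KBTBD4 exons covered 188 bases of the NDUFS3 window, and MORN5 exons 112 bases of the NDUFA8 window. Exons of the member itself covered 37 bases of the NDUFB2 window, 64 of NDUFS3 and 77 of NDUFB8. They covered 40 bases each of NDUFA8 and NDUFAB1. The positions above thus hold for the RefSeq start only, and whether a motif lay in those exon bases was not examined. Whether strand was kept is not stated, so reads from bases shared by NDUFB2 and NDUFB2-AS1 cannot be told apart. Overlap of these genes outside the NDUFB2 window was not examined. KBTBD4 stood at 3.29 FPKM in siSP1, 6.94 in siSP3 and 4.10 in siSP1SP3, against 5.66 and 6.30 FPKM in the controls. It was thus below both controls in siSP1 and in siSP1SP3 (log2 difference -0.70 in siSP1, limma adjusted p = 4.52e-05), as NDUFS3 was. MORN5 stayed below 1 FPKM in every library and was not tested.

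The first comparison asked which subunit transcripts change when SP1 is lowered. In siSP1, 21 of the 36 members fell and 6 rose, by limma on log2(FPKM + 1) with an adjusted p under 0.05, while of all 11728 genes tested 65.4% were called, 28.8% lower and 36.5% higher. NDUFB2, a small subunit of the distal membrane arm, fell most, to 16.4% of control, and NDUFS3, a core subunit of the peripheral arm, fell to 38.0% of control. The median difference of the members was -0.21, beside 0.06 over all genes tested. Since 34 members had a mean of at least 5 FPKM, calls were also counted among the 7127 genes at that level, of which 34.4% were lower and 37.3% higher in siSP1, with a median of 0.02. On either count falls outnumbered rises among the members, and rises outnumbered falls among the genes.

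Of the 6 core subunits of the peripheral arm, 4 fell and 1 rose in siSP1. NDUFS3, which lies where electrons reach the ubiquinone site, stood at 22.2 FPKM in siSP1, 69.4 in siSP3 and 52.1 in siSP1SP3, against 58.0 and 58.7 FPKM in the controls. The siSP1 library was far below the other 4, from 327 reads (95% exact interval of the ratio to control 33.7% to 42.8%, counting error only), and the difference was -1.36 ± 0.06 (SE, limma adjusted p = 1.8e-10). NDUFS7, which holds the last iron-sulfur cluster before ubiquinone, stood at 13.0 FPKM in siSP1, 21.0 in siSP3 and 19.3 in siSP1SP3, against 20.4 and 19.5 FPKM in the controls. The siSP1 value was far below the other 4, which lay close together, with a difference of -0.58 ± 0.08 (adjusted p = 1.1e-05). NDUFS1, which carries several of the clusters, fell by 0.29 on the log2 scale, and NDUFV1, which binds NADH and the flavin, fell by 0.17. NDUFV2, the flavin subunit's partner, had a difference of -0.13 and did not pass. NDUFS8, another cluster-bearing core subunit, went the other way, at 72.6 FPKM in siSP1, 77.4 in siSP3 and 84.8 in siSP1SP3, against 55.4 and 55.6 FPKM in the controls. All 3 knockdown libraries lay above both controls, and the siSP1 difference was 0.38 ± 0.06 (adjusted p = 6.66e-05).

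Of the accessory subunits of the peripheral arm 8 of 9 fell in siSP1, with a median of -0.41, and NDUFS4, the other, had a difference of -0.06. NDUFA2, a thioredoxin-like subunit of the NADH-binding module, stood at 41.5 FPKM in siSP1, 48.1 in siSP3 and 56.8 in siSP1SP3, against 63.0 and 62.7 FPKM in the controls. All 3 knockdown libraries were below both controls, siSP1 the lowest, with a siSP1 difference of -0.59 ± 0.06 (limma adjusted p = 1.18e-06). NDUFA7, at the junction with the membrane arm, stood at 39.8 FPKM in siSP1, 71.7 in siSP3 and 65.04 in siSP1SP3, against 59.8 and 58.9 FPKM in the controls. It was below the controls in siSP1 (-0.57 ± 0.06, adjusted p = 1.58e-06) and above them in the other knockdown libraries. NDUFV3, a small flavin-module subunit of low level, stood at 2.85 FPKM in siSP1, 3.97 in siSP3 and 2.17 in siSP1SP3, against 5.17 and 4.97 FPKM in the controls. Its siSP1 difference was -0.65 ± 0.11 (adjusted p = 0.000116), and this scale understates changes at such a level. NDUFA9, an accessory subunit near the ubiquinone site, stood at 28.9 FPKM in siSP1, 42.1 in siSP3 and 39.6 in siSP1SP3, against 37.2 and 35.9 FPKM in the controls. It was below the controls in siSP1 alone, and fell there by 0.33 on the log2 scale. NDUFA12, NDUFS6, NDUFA5 and NDUFA6 fell by 0.46, 0.41, 0.40 and 0.29.

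The membrane arm was mixed in siSP1. In its distal part, where the NDUFB subunits surround the far proton pumps, 6 of 11 members fell and 2 rose. NDUFB2 stood at 6.97 FPKM in siSP1, 39.7 in siSP3 and 19.5 in siSP1SP3, against 40.8 and 44.0 FPKM in the controls. It was low in both libraries with the SP1 siRNA and close to the controls in siSP3. The siSP1 value rested on 53 reads, against 663 in the 2 controls together (12.2% to 21.8% of control by counting error), with a difference of -2.44 ± 0.08 (limma adjusted p = 2.63e-12). NDUFB8, a subunit whose protein is widely used to gauge assembled complex I on immunoblots, stood at 110.4 FPKM in siSP1, 109.6 in siSP3 and 106.5 in siSP1SP3, against 184.9 and 184.1 FPKM in the controls. The 3 knockdown libraries were alike and all far below both controls, and the siSP1 difference was -0.74 ± 0.06 (adjusted p = 3.16e-08). NDUFB3 stood at 21.3 FPKM in siSP1, 35.96 in siSP3 and 34.0 in siSP1SP3, against 26.8 and 25.3 FPKM in the controls. NDUFB9, an LYR-motif subunit, stood at 206 FPKM in siSP1, 286 in siSP3 and 268 in siSP1SP3, against 242 and 233 FPKM in the controls. For both, siSP1 lay below the controls and the other knockdown libraries above them. NDUFB10, NDUFB3, NDUFB9 and NDUFB4 fell by 0.36, 0.28, 0.21 and 0.21 on the log2 scale in siSP1.

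The rises in siSP1 were smaller. NDUFB1 stood at 52.4 FPKM in siSP1, 37.7 in siSP3 and 51.6 in siSP1SP3, against 36.9 and 31.4 FPKM in the controls, which differed more from each other for this gene than for any other member. Its siSP1 difference was 0.61 ± 0.08 (limma adjusted p = 1.31e-05). NDUFB5 stood at 44.7 FPKM in siSP1, 66.7 in siSP3 and 58.6 in siSP1SP3, against 31.9 and 29.1 FPKM in the controls. The 3 knockdown libraries all lay above both controls, siSP1 the least so, at 0.54 ± 0.07 (adjusted p = 9.42e-06). In the proximal membrane arm, next to the peripheral arm, 3 of 9 members fell and 2 rose, with a median of 0.04. NDUFA8, a cysteine-rich subunit on the intermembrane side, stood at 26.1 FPKM in siSP1, 32.5 in siSP3 and 35.8 in siSP1SP3, against 20.3 and 20.3 FPKM in the controls. All knockdown libraries were above the controls, and the siSP1 difference was 0.35 ± 0.07 (adjusted p = 0.00056). NDUFA3 stood at 59.9 FPKM in siSP1, 41.6 in siSP3 and 53.4 in siSP1SP3, against 47.3 and 48.2 FPKM in the controls, so that only siSP3 lay below the controls. Its siSP1 difference was 0.32 ± 0.06 (adjusted p = 0.00049). NDUFAB1, the mitochondrial acyl carrier protein, which sits in both arms and also serves fatty acid and lipoic acid synthesis, stood at 79.9 FPKM in siSP1, 112.9 in siSP3 and 107.4 in siSP1SP3, against 69.3 and 72.7 FPKM in the controls. Its siSP1 rise of 0.17 ± 0.06 passed narrowly (adjusted p = 0.0266), but not after median-ratio scaling of the libraries (0.12, adjusted p = 0.165).

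Counted with no test, 26 of the 36 members lay below each control in siSP1 and 9 above each, against 41.8% and 51.2% of all genes tested. Among members at a mean of at least 5 FPKM the counts were 25 and 8 of 34, against 45.2% and 48.6% of genes. Of the 34 members with a mean of at least 5 FPKM, 5 stood at least 1.5-fold below each control in siSP1, NDUFA2, NDUFB2, NDUFB8, NDUFS3 and NDUFS7, and 0 stood as far above. Among all genes at that level, 14.8% were as far below and 14.1% as far above. Where the departure of siSP1SP3 from the sum of both siRNA effects was counted as spread (the additive model, 2 factors), only NDUFB2 (-1.82, limma adjusted p = 0.0443) and NDUFV3 (-0.65, adjusted p = 0.0414) fell, against 7.67% of all genes called, and the NDUFS3 difference was -0.95 (adjusted p = 0.0619).

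**Figure D2:**
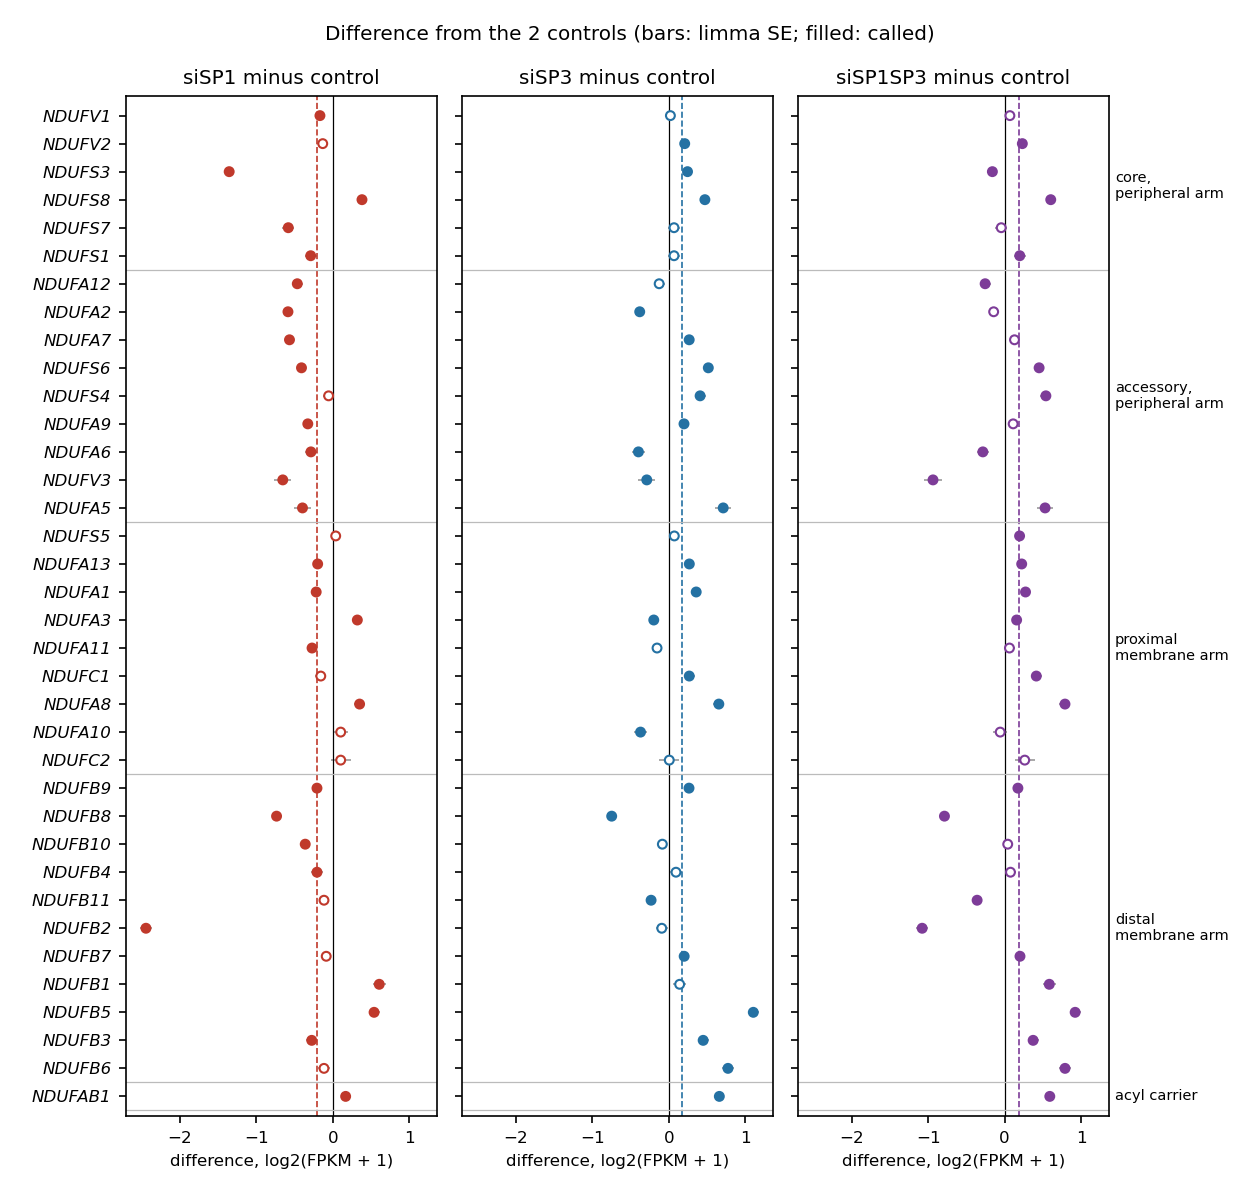
Difference of each member from the mean of the 2 controls in siSP1 (left), siSP3 (middle) and siSP1SP3 (right), on the log2(FPKM + 1) scale, with limma standard errors as bars, filled points for an adjusted p under 0.05 and the median of the 36 members as a dashed line. The median is -0.21 in siSP1, 0.17 in siSP3 and 0.18 in siSP1SP3.

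The second comparison asked the same of SP3. In siSP3, 18 of the 36 members rose and 7 fell, while 61.6% of all genes tested were called, 29.6% higher and 32.1% lower. NDUFB5 rose most, to 218.8% of control, followed by NDUFB6, NDUFA5, NDUFAB1 and NDUFA8, and NDUFB8 fell most, to 59.4% of control. The median difference was 0.17, beside -0.02 over all genes tested. At a mean of at least 5 FPKM the share of genes called turned, to 37.7% higher and 32.1% lower, with a median of 0.04, so that rises outnumbered falls among genes at the members' level too. This comparison and the one for siSP1 share the 2 control libraries.

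Among the core subunits, 3 of 6 rose in siSP3. These were NDUFS8 (0.47), NDUFS3 (0.25 ± 0.06, limma adjusted p = 0.00399) and NDUFV2 (0.21). NDUFS7, NDUFS1 and NDUFV1 had differences of 0.07, 0.07 and 0.02 and did not pass, with intervals of the difference from -0.11 to 0.24.

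The accessory subunits of the peripheral arm split in siSP3, with 5 of 9 higher and 3 lower. NDUFA5, of the ubiquinone module, stood at 7.86 FPKM in siSP3, 3.11 in siSP1 and 6.80 in siSP1SP3, against 4.56 and 4.25 FPKM in the controls. It was above the controls in both libraries with the SP3 siRNA and below them in siSP1, with a siSP3 difference of 0.71 ± 0.11 (limma adjusted p = 3.33e-05). NDUFS6, a zinc-binding subunit, stood at 83.0 FPKM in siSP3, 43.2 in siSP1 and 79.2 in siSP1SP3, against 56.6 and 58.7 FPKM in the controls. It had the same order of libraries as NDUFA5, and rose by 0.52 ± 0.06 (adjusted p = 4.71e-06). NDUFS4, a subunit whose loss causes Leigh syndrome, stood at 58.4 FPKM in siSP3, 42.0 in siSP1 and 64.0 in siSP1SP3, against 41.6 and 45.9 FPKM in the controls, and rose by 0.41. NDUFA7 and NDUFA9 rose by 0.27 and 0.20. The falls were those of NDUFA6, an LYR-motif subunit that binds the acyl carrier protein, of NDUFA2 (-0.38) and of NDUFV3 (-0.29). NDUFA6 stood at 24.6 FPKM in siSP3, 26.6 in siSP1 and 26.7 in siSP1SP3, against 34.7 and 30.8 FPKM in the controls. The 3 knockdown libraries were alike and below both controls, with a siSP3 difference of -0.40 ± 0.08 (adjusted p = 0.000517).

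In the distal membrane arm 5 of 11 members rose in siSP3 and 2 fell. The NDUFB5 difference, from the values given above, was 1.11 ± 0.07 (limma adjusted p = 5.28e-09), and 1128 reads behind it gave 200.9% to 238.5% of control by counting error. NDUFB6 stood at 29.7 FPKM in siSP3, 15.6 in siSP1 and 30.1 in siSP1SP3, against 16.1 and 17.8 FPKM in the controls. Both libraries with the SP3 siRNA lay far above the others, which differed little among themselves, and the siSP3 difference was 0.78 ± 0.08 (adjusted p = 8.82e-07). NDUFB3, NDUFB9 and NDUFB7 rose by 0.45, 0.27 and 0.20. NDUFB8 fell by 0.75 ± 0.06 on the log2 scale (adjusted p = 3.2e-08). NDUFB11, which is encoded on the X chromosome, stood at 58.9 FPKM in siSP3, 63.9 in siSP1 and 53.8 in siSP1SP3, against 72.4 and 66.3 FPKM in the controls, and fell by 0.23 in siSP3. NDUFB2 had a difference of -0.09 in siSP3 with an interval from -0.25 to 0.07.

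In the proximal membrane arm 4 of 9 members rose in siSP3 and 2 fell. NDUFA8 rose by 0.66 ± 0.07 (limma adjusted p = 1.47e-06) and NDUFA1 by 0.36. NDUFA1, an X-linked subunit at the foot of the peripheral arm, stood at 183 FPKM in siSP3, 122 in siSP1 and 173 in siSP1SP3, against 140.3 and 145 FPKM in the controls, so that the 2 libraries with the SP3 siRNA were above the controls and siSP1 below. NDUFA13, also known as GRIM-19, rose by 0.27, from 204.9 FPKM in siSP3, 148 in siSP1 and 198 in siSP1SP3, against 175 and 165 FPKM in the controls. NDUFC1 rose by 0.27. NDUFA10, a nucleoside kinase-like subunit, stood at 8.09 FPKM in siSP3, 11.6 in siSP1 and 10.3 in siSP1SP3, against 10.5 and 11.0 FPKM in the controls. Only siSP3 stood apart, at -0.37 ± 0.09 (adjusted p = 0.00221), and NDUFA3 fell by 0.20. NDUFAB1 rose by 0.66 ± 0.06 (adjusted p = 2.64e-07).

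Counted with no test, 23 of the 36 members lay above each control in siSP3 and 11 below each, against 44.7% and 47.6% of all genes tested. Among the 34 members with a mean of at least 5 FPKM the counts were 23 and 10, against 50.4% and 43.7% of genes. In siSP3, 5 of 34 members stood at least 1.5-fold above each control (NDUFA5, NDUFA8, NDUFAB1, NDUFB5 and NDUFB6), against 13.6% of all genes at that level, and only NDUFB8 as far below, against 12.9%. In the additive model 9 members rose in siSP3 and 0 fell, with 15.4% of all genes called (limma, 19 members in either direction at an unadjusted p under 0.05). Of the falls, NDUFB8 had a difference of -0.45 (adjusted p = 0.131) and NDUFA2 one of -0.03 in that model.

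**Figure D3:**
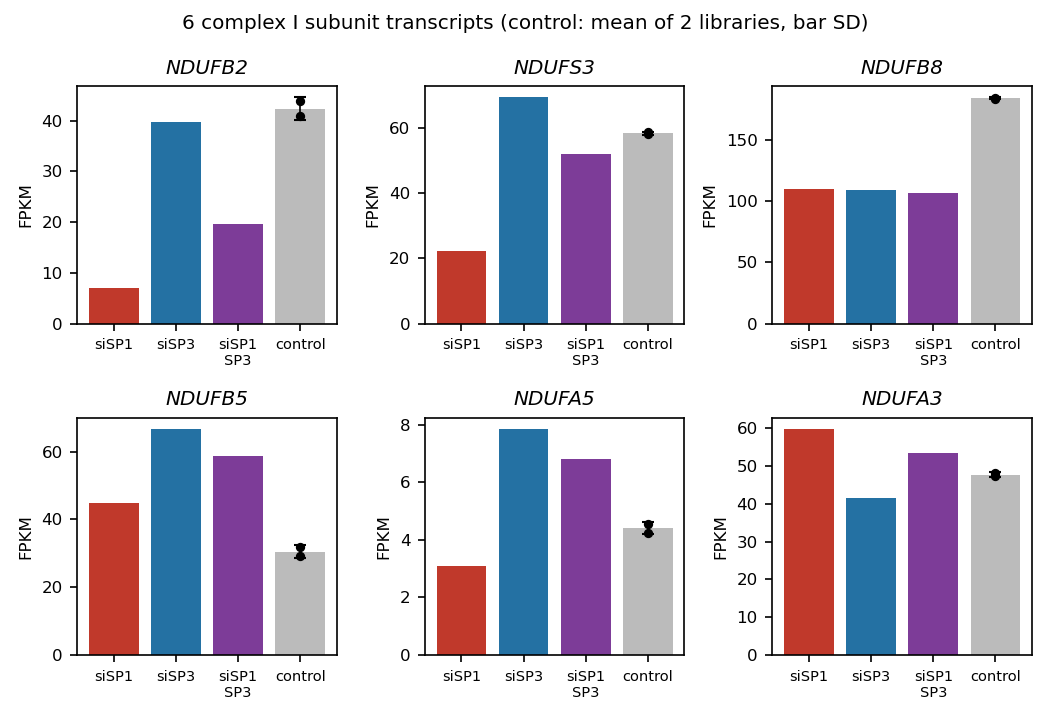
FPKM of 6 members in the siSP1, siSP3 and siSP1SP3 libraries (1 library each, no error bar) and in the controls (grey bar for the mean of 2 libraries, points for each, error bar for the SD). NDUFB2 is at 6.97 FPKM in siSP1 and 19.5 in siSP1SP3, against 40.8 and 44.0 in the controls, and NDUFB8 is at 106.5 to 110.4 FPKM in the knockdown libraries, against 184.9 and 184.1 in the controls.

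The third comparison asked what happened with both siRNAs together. In siSP1SP3, 19 of the 36 members rose and 7 fell, while 63.0% of all genes tested were called, 31.9% higher and 31.1% lower. The median difference was 0.18, beside 0.01 over all genes tested. At a mean of at least 5 FPKM, 37.5% of genes were higher and 32.5% lower. NDUFB5, NDUFB6, NDUFA8, NDUFS8, NDUFAB1 and NDUFB1 rose most, at 0.92, 0.79, 0.79, 0.60, 0.59 and 0.58, and NDUFB2 (-1.08), NDUFV3 (-0.94) and NDUFB8 (-0.79) fell most.

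By place in the enzyme, the proximal membrane arm had 6 of 9 members higher in siSP1SP3, among them NDUFC1 (0.41), and the distal membrane arm 6 higher and 3 lower of 11. NDUFC1, a small subunit of the proximal arm, stood at 39.2 FPKM in siSP1SP3, 26.0 in siSP1 and 35.3 in siSP3, against 29.4 and 28.96 FPKM in the controls. NDUFS5, a cysteine-rich subunit on the intermembrane side, rose in siSP1SP3 and passed in neither single knockdown. It stood at 296 FPKM in siSP1SP3, 265 in siSP1 and 272 in siSP3, against 256 and 261 FPKM in the controls, a difference of 0.20 ± 0.05 (limma adjusted p = 0.00567). In the peripheral arm, 3 of 6 core subunits rose and NDUFS3 fell slightly, by 0.16 ± 0.06 (adjusted p = 0.0424), while accessory subunits had 3 higher and 3 lower of 9. NDUFA12, which seals the NADH-binding module and has the assembly factor NDUFAF2 as its paralog, stood at 57.1 FPKM in siSP1SP3, 49.3 in siSP1 and 62.6 in siSP3, against 64.8 and 72.2 FPKM in the controls. Every knockdown library was below both controls, and the siSP1SP3 difference was -0.25 ± 0.07 (adjusted p = 0.00598).

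NDUFB11 fell by 0.36 ± 0.07 in siSP1SP3 (limma adjusted p = 0.000309) and NDUFA6 by 0.28 ± 0.08 (adjusted p = 0.0059). NDUFB2 stood at 46.1% of control in siSP1SP3, from 142 reads (38.2% to 55.3% by counting error). NDUFC2, at 1.64 FPKM in siSP1SP3, 1.36 in siSP1 and 1.21 in siSP3, against 1.18 and 1.21 FPKM in the controls, did not pass in any comparison, and at 47 to 61 reads per library its interval in siSP1SP3 ran from -0.02 to 0.54.

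Counted with no test, 25 of the 36 members lay above each control in siSP1SP3 and 10 below each, against 47.1% and 45.5% of all genes tested. At a mean of at least 5 FPKM the counts were 24 and 9 of 34, against 49.4% and 44.5% of genes. In siSP1SP3, 4 of 34 members stood at least 1.5-fold above each control (NDUFA8, NDUFB5, NDUFB6 and NDUFS8), against 13.7% of all genes at that level, and 2 as far below (NDUFB2 and NDUFB8), against 13.4%. In the additive model 5 members rose and 1, NDUFV3, fell, with 16.8% of all genes called.

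The next comparison set siSP3 directly against siSP1, 1 library each, with the spread again borrowed from the controls. In siSP3, 26 of the 36 members were higher than in siSP1 and 3 lower, while 62.7% of all genes tested were called, 26.5% higher and 36.2% lower. The median difference was 0.35, beside -0.09 over all genes tested. At a mean of at least 5 FPKM the share of genes called turned, to 35.7% higher and 33.8% lower, with a median of 0.01, beside 25 higher and 3 lower of 34 members in that fit. In FPKM, 29 members (of 36) were higher in siSP3 than in siSP1, as were 43.1% of all genes tested and 50.5% of those at a mean of at least 5 FPKM.

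NDUFB2 had 39.7 FPKM in siSP3 and 6.97 in siSP1, a difference of 2.35 ± 0.09 (limma adjusted p = 2.24e-11), and NDUFS3 had 69.4 FPKM in siSP3 and 22.2 in siSP1, a difference of 1.60 ± 0.07 (adjusted p = 2.01e-10). NDUFA5 and NDUFS6 followed at 1.11 ± 0.12 and 0.93 ± 0.07. Beside these 4, differences of 0.19 to 0.89 were called for 22 others. All of them are set against the same siSP1 library. The comparison of siSP1SP3 with siSP1 below uses that library too, so these results are not independent of the falls in siSP1. Of the core subunits 5 of 6 were higher in siSP3, of the peripheral accessory subunits 8 of 9, of the distal membrane arm 8 of 11 and of the proximal membrane arm 4 of 9. NDUFA3 (-0.52 ± 0.07), NDUFA10 (-0.47 ± 0.10) and NDUFB1 (-0.46 ± 0.10) were lower in siSP3 than in siSP1. NDUFB8 had 109.6 FPKM in siSP3 and 110.4 in siSP1, a difference of -0.01 with an interval from -0.15 to 0.13. In the additive model 5 members remained higher in siSP3, NDUFA5, NDUFB2, NDUFB6, NDUFS3 and NDUFS6, against 10.9% of all genes called.

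**Figure D4:**
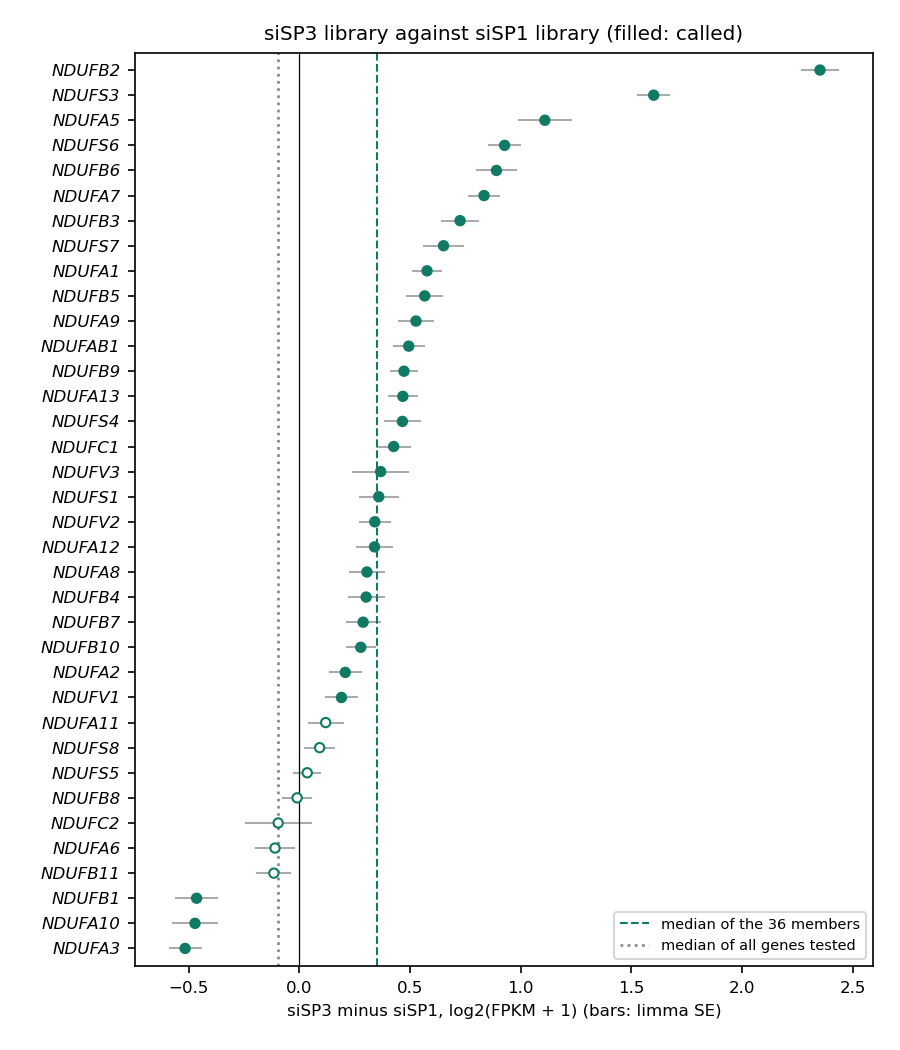
Difference of siSP3 minus siSP1 for each of the 36 members on the log2(FPKM + 1) scale, sorted by size, with limma standard errors as bars and filled points for an adjusted p under 0.05. The median of the members (dashed) is 0.35 and that of all genes tested (dotted) is -0.09.

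Set against the single knockdowns, siSP1SP3 lay nearer to siSP3. On the log2(FPKM + 1) scale it was closer to siSP3 than to siSP1 for 30 of 36 members and for 58.6% of all genes tested. In FPKM, at a mean of at least 5 FPKM, it was closer to siSP3 for 29 of 34 members and for 57.6% of genes. It lay between the single knockdowns for 19 members, above both for 14 and below both for 3. Against siSP1, 27 members were higher in siSP1SP3 and 1 lower, while 47.5% of all genes tested were called, 21.0% higher and 26.4% lower. At a mean of at least 5 FPKM that share turned, to 30.5% higher and 26.4% lower. NDUFB2 (1.37 ± 0.09), NDUFS3 (1.20 ± 0.07), NDUFA5 (0.93 ± 0.12) and NDUFB6 (0.91 ± 0.09) differed most, and NDUFB11 was the member that was lower (-0.24 ± 0.08).

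Against siSP3, 33.0% of all genes tested were called, 17.9% higher and 15.1% lower in siSP1SP3. At a mean of at least 5 FPKM, 22.9% of genes were higher and 21.8% lower. Of the 36 members, 4 were higher in siSP1SP3 and 3 lower. The higher ones were NDUFB1 (0.44 ± 0.10), NDUFA3 (0.35 ± 0.07), NDUFA10 (0.31 ± 0.10) and NDUFA2 (0.24 ± 0.07), whose direction turned in the additive model (-0.23). The lower ones were NDUFB2, with 19.5 FPKM in siSP1SP3 and 39.7 in siSP3 (-0.99 ± 0.09, limma adjusted p = 1.54e-06), NDUFV3 (-0.65 ± 0.13) and NDUFS3, with 52.1 FPKM in siSP1SP3 and 69.4 in siSP3 (-0.41 ± 0.07, adjusted p = 0.00082). In the additive model 9 members were higher than in siSP1, with 15.4% of all genes called. NDUFB2 and NDUFV3 were lower than in siSP3, with 7.67% of all genes called. That model has only an SP1 and an SP3 term. Its counts here are therefore those of siSP3 and of siSP1 against control again, not separate results. The departure of siSP1SP3 from the sum of the single effects (the interaction) was called for 15 of 36 members (41.7%), near the 39.5% of all genes tested. It was positive for 13 members and negative for 2, against 18.5% and 21.0% of all genes tested. At a mean of at least 5 FPKM, 49.9% of genes were called, 24.1% positive and 25.8% negative. The interaction, too, uses the siSP1 library.

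**Figure D5:**
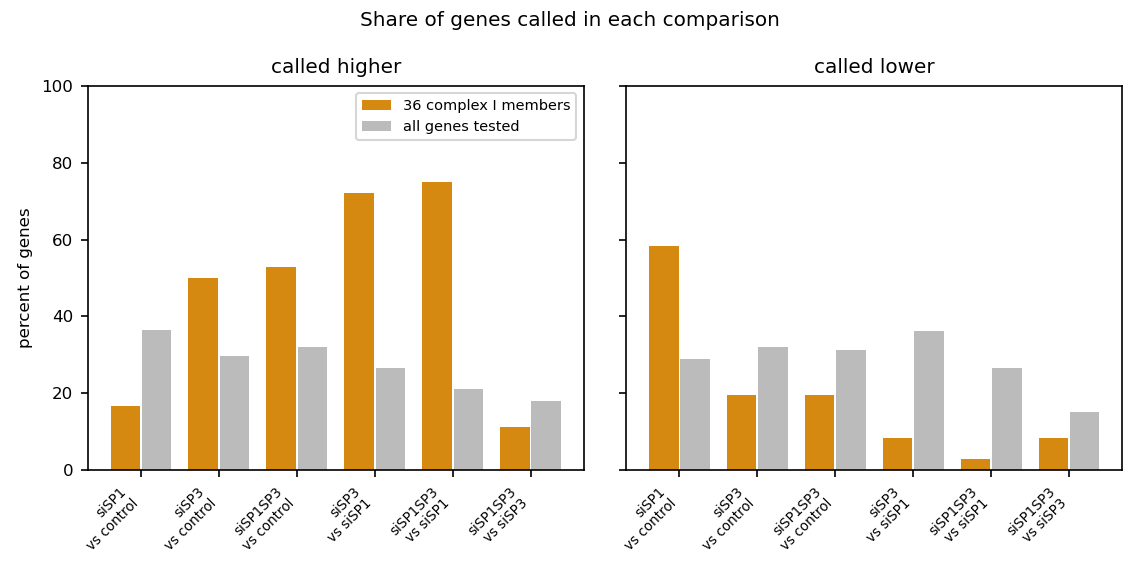
Percent of the 36 members (orange) and of all 11728 genes tested (grey) that were called higher (left) and lower (right) in each comparison, by limma with an adjusted p under 0.05. In siSP1 against control, 58.3% of members and 28.8% of all genes were lower, and in siSP3 against siSP1, 72.2% of members and 26.5% of all genes were higher (35.7% of genes at a mean of at least 5 FPKM, not drawn).

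Members with and without a GC box were among those that rose and those that fell. In siSP1, of the 20 members whose 250-base window held a GC box 14 fell and 1 rose (median -0.29), and of the 12 without one 6 fell and 4 rose (median -0.14). In siSP3, the members with a GC box had 10 rises and 6 falls (median 0.14) and those without one 6 rises and 1 fall (median 0.17). Of all genes tested, whatever their promoter, 28.8% were lower and 36.5% higher in siSP1, and 29.6% higher and 32.1% lower in siSP3. The shares among all genes with and without a GC box were not counted. The member counts were not tested against each other, so whether the GC box goes with the response cannot be told from them. The 3 members with an NRF1 motif differed by -0.21 (NDUFB4), -0.41 (NDUFS6) and -0.58 (NDUFS7) in siSP1, and by 0.10, 0.52 and 0.07 in siSP3.

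Assembly factors, proteins that help to build complex I and are absent from the finished enzyme, were tested for 18 of 19 listed genes. In siSP1, 4 rose and 3 fell, in siSP3 4 rose and 6 fell, and in siSP1SP3 4 rose and 4 fell, with medians of -0.04, -0.01 and 0.02. Of the 18, 38.9%, 55.6% and 44.4% were thus called, against 65.4%, 61.6% and 63.0% of all genes tested. NDUFAF1, a membrane arm assembly factor, stood at 3.69 FPKM in siSP1, 11.9 in siSP3 and 8.35 in siSP1SP3, against 5.71 and 5.22 FPKM in the controls. It was below the controls in siSP1 and above them in both libraries with the SP3 siRNA, and the direct difference of siSP3 from siSP1 was 1.46 ± 0.12 (limma adjusted p = 6.07e-08). Its partner ACAD9 stood at 5.47, 6.91 and 6.42 FPKM in siSP1, siSP3 and siSP1SP3, against 11.4 and 10.8 FPKM in the controls, and fell in all 3 (-0.90, -0.61 and -0.71). TMEM186, of the same assembly complex, stood at 2.02, 1.73 and 0.706 FPKM in siSP1, siSP3 and siSP1SP3, against 2.95 and 3.04 FPKM in the controls, with a siSP1SP3 difference of -1.23 ± 0.12 (adjusted p = 5.8e-07). NDUFAF2, which takes the place of NDUFA12 during assembly, stood at 31.0, 26.0 and 22.0 FPKM in siSP1, siSP3 and siSP1SP3, against 17.7 and 16.4 FPKM in the controls, and rose in all 3 (0.82, 0.58 and 0.35). NDUFAF3, of the ubiquinone module, fell in siSP3 (-0.59), and NDUFAF6 rose in siSP1 (0.67) at a level of 0.848 to 1.96 FPKM. ACAD9 and NDUFAF2 passed in none of these 3 comparisons in the additive model: ACAD9 differed by -0.56, -0.27 and -0.82 in siSP1, siSP3 and siSP1SP3 (limma adjusted p = 0.121, 0.377 and 0.0820), and NDUFAF2 by 0.37, 0.12 and 0.50 (adjusted p = 0.324, 0.740 and 0.294). Those that passed there were NDUFAF1 in siSP3 and TMEM186 in siSP3 (-0.67) and siSP1SP3 (-1.19). No mitochondrially encoded subunit was among the symbols used here.

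Nuclear subunits of complexes II to V were tested for 43 of 48 listed genes as the nearest relatives of complex I. In siSP1, 16 fell and 12 rose (median -0.07), in siSP3 23 rose and 4 fell (median 0.17), and in siSP1SP3 26 rose and 3 fell (median 0.20). Of all genes tested, 28.8% fell and 36.5% rose in siSP1. In siSP3 29.6% rose and 32.1% fell, and in siSP1SP3 31.9% and 31.1%. At a mean of at least 5 FPKM, 37.7% of genes rose in siSP3 and 32.1% fell. Directly compared, 25 of the 43 were higher and 6 lower in siSP3 than in siSP1 (median 0.29), against 26.5% and 36.2% of all genes tested. At a mean of at least 5 FPKM these shares were 35.7% and 33.8%. CYC1, the cytochrome c1 of complex III, stood at 46.6 FPKM in siSP1, 116.7 in siSP3 and 96.6 in siSP1SP3, against 119.3 and 118.4 FPKM in the controls. Like NDUFS3 it was lowest in siSP1, and it fell by 1.33 ± 0.06 in siSP1 (limma adjusted p = 9.56e-11). ATP5F1B, the catalytic subunit of the ATP synthase, stood at 293 FPKM in siSP1, 547 in siSP3 and 515 in siSP1SP3, against 509.7 and 529 FPKM in the controls, and fell by 0.82 ± 0.05 in siSP1. SDHB, an iron-sulfur subunit of complex II, stood at 94.95, 120.5 and 114.4 FPKM in siSP1, siSP3 and siSP1SP3, against 67.5 and 67.9 FPKM in the controls, above both in every knockdown library. Of the 43 genes 0 passed in siSP1 in the additive model (limma, 10 at an unadjusted p under 0.05), with CYC1 at -0.88 (adjusted p = 0.0776) and ATP5F1B at -0.51 (adjusted p = 0.114), while 7 rose in siSP3 and 8 in siSP1SP3. Of all genes tested, 7.67% were called in siSP1 in that model, and 6.69% rose in siSP3 and 7.97% in siSP1SP3. Members and this list were not tested against each other.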

How the data were processed

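RNA was extracted with Trizol and sequenced from Illumina libraries, per the labels. The authors deposited a table of FPKM values for each library. HTSeq 0.9.1, Cufflinks 2.2.1, HISAT2 2.0.5 and Trimmomatic 0.36 are named without roles, per the submitters' processing notes. Build, annotation and strand: not given in the sources used here. FPKM are not counts, so no count model was run. Whole reads were recovered from the steps of the deposited FPKM values (within 0.02 reads, for all 36 members) and served for depth and 95% exact intervals, which cover counting error only. Since the length used for a gene may carry a common factor, recovered reads and lengths are lower limits. Of 20030 rows, 27 with a calendar date as symbol were kept unnamed.

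Differences were tested in limma 3.58.1 (R 4.3.3) after log2(FPKM + 1), with a variance trend, over the 11728 genes of at least 1 FPKM in some library. One mean was fitted per group, with 1 residual degree of freedom, from the controls, and 13.98 prior ones. The scale understates changes of low genes. P-values were adjusted by Benjamini-Hochberg over all genes tested, with a threshold of 0.05. The interaction is the siSP1SP3 difference minus the sum of the siSP1 and siSP3 differences. Alternatives were other pseudocounts (0.1 and 5), filters, scaling, no trend, an additive model with an SP1 and an SP3 term, and each control left out. The fit was tested on simulated data. Members with values in every library were the 6 largest rises and falls passing in each comparison with control (mean of at least 5 FPKM), the 4 largest in other comparisons and those passing in opposite directions in siSP1 and siSP3; a few others were added after their values were seen. Assembly factors and subunits of complexes II to V were named from those of smallest p, up to 4 a comparison, but not strictly in that order. ATP5MD, for example, had a smaller p than SDHB in siSP3 and in siSP1SP3 and was not described. Regulators were not named strictly by p either. Members and lists were chosen with earlier results of these data known.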

Additional observations from a re-analysis of the deposited data

Results flagged for a closer look

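For 15 members the effect of one siRNA differed with the other siRNA present, by the interaction in the limma fit across all 11728 genes (adjusted p under 0.05, 41.7% of members and 39.5% of all genes). At a mean of at least 5 FPKM, 49.9% of genes were called for the interaction. The value is the siSP1SP3 difference from control minus the sum of the siSP1 and siSP3 differences, on the log2(FPKM + 1) scale. It rests on 1 library for each knockdown and on the spread of the 2 controls. It was positive for 13 members (18.5% of all genes), so that siSP1SP3 was higher than the sum, and negative for 2 (21.0% of all genes). NDUFB2 had the highest, 1.46 ± 0.12 (SE, adjusted p = 2.97e-07): the siSP1SP3 library had 19.5 FPKM and siSP1 6.97 FPKM, against 40.8 and 44.0 FPKM in the controls. NDUFS3 followed at 0.95 ± 0.10 (adjusted p = 3.56e-06), NDUFA2 at 0.82 ± 0.10 (adjusted p = 1.23e-05) and NDUFB8 at 0.69 ± 0.09 (adjusted p = 2.2e-05). For NDUFB8 the 3 knockdown libraries stood at like levels, so that the effects of the 2 siRNAs did not add. Smaller positive values were those of NDUFA11 (0.49), NDUFB10 (0.48), NDUFS7 (0.47), NDUFA7 (0.43), NDUFS1 (0.42), NDUFA6 (0.40), NDUFS6 (0.34), NDUFA12 (0.33) and NDUFC1 (0.30). It was negative for NDUFB5 (-0.72 ± 0.11, adjusted p = 0.000118) and NDUFS8 (-0.25 ± 0.09, adjusted p = 0.0459), whose siSP1SP3 levels were above both controls and below the sum of the separate rises.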

How the results depend on the processing

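The counts of members called (27 of 36 for siSP1, 25 for siSP3 and 26 for siSP1SP3 against control, 29 for siSP3 against siSP1, 28 and 7 for siSP1SP3 against siSP1 and siSP3, 15 for the interaction) stayed within 1.5 times under other pseudocounts, a mean of at least 5 FPKM and median-ratio scaling. Without a variance trend the interaction had 9, and the other counts stayed within 1.5 times. With no filter on low values the counts in that order were 12, 7, 9, 11, 0, 0 and 0, where limma gave 25, 11 and 14 members at an unadjusted p under 0.05 for the last 3. Without the filter 24.4%, 12.3%, 18.4% and 15.4% of 17125 genes were called in the first 4, and 0 in the last 3, so those zeros are not about the members. In the additive model, which gives no interaction, they were 2, 9, 6, 5, 9 and 2. With 1 control left out in that model they ranged over 1 to 1 for siSP1, 0 to 2 for siSP3, 0 to 0 for siSP1SP3, 2 to 3 for siSP3 against siSP1, and 0 to 2 and 1 to 1 for siSP1SP3 against siSP1 and siSP3. In that model siSP1SP3 against siSP1 is the same term as siSP3 against control, and siSP1SP3 against siSP3 the same as siSP1 against control. Their counts are therefore not separate results. The counts of 0 had 9, 6 and 9 members at an unadjusted p under 0.05 by limma (siSP3, siSP1SP3 and siSP1SP3 against siSP1), and the cause was not tested. Of 75 named differences, 75 held under either other pseudocount, 70 after median-ratio scaling, 62 without a trend and 27 with no filter, and the rest kept their direction without passing. Of 69 in the additive model 22 held, 46 did not pass and 1 turned, and without control 1 or control 2 in that model 9 and 4 held. With 1 mean per group and either control left out, 5 of 75 (NDUFB1, NDUFA6 and NDUFA12) moved by more than their SE in the main fit. NDUFA2 turned direction: siSP3 against control was 0.034 without control 1 and 0.031 without control 2 in the additive model, and siSP1SP3 against siSP3 was -0.23 in the additive model, -0.17 without control 1 and -0.18 without control 2. No paired analysis was possible because the knockdown libraries carry no replicate number. Depth limits NDUFC2, at 47 to 61 reads per library.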

Other observations

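Regulators of respiratory genes were listed beside the members, and 10 of 11 were tested (PPARGC1A stayed below 1 FPKM in every library). In siSP1 and in siSP3, 4 rose and 2 fell each, and in siSP1SP3 2 rose and 1 fell. Of the 10, 60.0%, 60.0% and 30.0% were thus called, against 65.4%, 61.6% and 63.0% of all genes tested. GABPA, the DNA-binding subunit of the ETS factor GABP, stood at 9.75 FPKM in siSP1, 7.20 in siSP3 and 7.99 in siSP1SP3, against 6.04 and 6.11 FPKM in the controls, and its rise passed in siSP1 (0.60 ± 0.10, limma adjusted p = 5.8e-05) and in siSP1SP3 (0.35 ± 0.10). ESRRA, the estrogen-related receptor alpha, stood at 17.7, 19.4 and 22.4 FPKM in siSP1, siSP3 and siSP1SP3, against 14.0 and 13.8 FPKM in the controls, and rose in all 3 (0.33, 0.45 and 0.66). PPRC1, a coactivator of the PGC-1 family, rose in siSP1 (0.64 ± 0.09) and in siSP3 (0.27 ± 0.09). It stood at 14.1 and 10.7 FPKM there, against 9.09 and 8.31 FPKM in the controls. PPARGC1B, another of that family, stood at 2.38 FPKM in siSP1, 0.762 in siSP3 and 1.29 in siSP1SP3, against 1.81 and 1.68 FPKM in the controls, and siSP3 differed from siSP1 by -0.94 ± 0.15. NRF1 fell in siSP3 (-0.32 ± 0.11, adjusted p = 0.0193). TFB2M rose in siSP3 (0.83 ± 0.13, limma adjusted p = 3.77e-05) and in siSP1 (0.37 ± 0.13). It stood at 9.89 and 6.93 FPKM there, against 5.89 and 4.44 FPKM in the controls. TFAM was lower in siSP1 (-0.25 ± 0.11) and higher in siSP3 (0.28 ± 0.11). In the additive model ESRRA in siSP1SP3 (0.68, adjusted p = 0.0374) and PPARGC1B in siSP3 (-0.60, adjusted p = 0.0341) passed, and the other differences from control named here did not.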
